A study of Homo sapiens with 5 samples.

Results

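Aminoacyl-tRNA synthetases are described here in the RNA of HEK293T cells that carried a guided dCas9 fusion. They were taken by symbol, as every gene written with 1 letter followed by ARS or ARS2, together with EPRS, FARSA and FARSB. Described are 36 such genes of 19716 genes with a read in at least 1 library. The 16 symbols that end in 2 were taken as the mitochondrial enzymes and the other 20 as the cytosolic ones, although GARS and KARS are known to encode both forms.

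HEK293T is an established line from human embryonic kidney. All cells were transfected with 1 ug of plasmid by X-tremeGENE 9 and harvested at 48 h, and each group gave 1 library. In 4 groups the cells expressed 5 gRNAs against the promoter of uPA (PLAU, the urokinase plasminogen activator) with a dCas9-BFP fusion to DNMT1 (dCas9-BFP-DNMT1), to DNMT3A (dCas9-BFP-DNMT3A), to DNMT3B (dCas9-BFP-DNMT3B) or to EGFP (dCas9-BFP-EGFP). dCas9 is Cas9 without nuclease activity, BFP is a blue fluorescent protein, and the DNMT partners are catalytic domains of DNA methyltransferases. DNMT3A and DNMT3B methylate DNA de novo, DNMT1 maintains methylation, and EGFP is a fluorescent protein with no such activity. The control group received pUC19, a plasmid that encodes neither dCas9 nor a gRNA. The labels describe sorting for BFP in every group, and it is unclear how this applied to cells given pUC19. The fusion groups thus differ from the control in dCas9, gRNAs, BFP and possibly sorting together, and these cannot be told apart.

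A synthetase joins an amino acid to its tRNA and so supplies the ribosome. Human cells use separate genes for most cytosolic and mitochondrial enzymes, and part of the cytosolic enzymes sit in the multisynthetase complex with the scaffold proteins AIMP1, AIMP2 and EEF1E1. The enzymes fall into class I and class II by the fold of their catalytic domain. Several cytosolic genes are known targets of ATF4, the transcription factor of the amino acid response.

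Libraries held 26250000 to 36140000 reads assigned to genes, in rounded totals. PLAU had 106 reads with pUC19 and 1 to 6 with the fusions. The DNMT1, DNMT3A and DNMT3B rows took 3.53%, 3.19% and 5.98% of the reads of the fusion that encodes them. The kidney line markers IRS4, NEFM, NEFL, PAX2 and LIN28B were detected in all 5 libraries, while PTPRC, ALB, COL3A1 and HBB stayed at or below 0.807 TPM (reads divided by gene length and scaled to the same sum in each library) and CDH5 had no row. IRS4, NEFM and NEFL were called lower in each fusion, IRS4 at 66.3 to 76.5 TPM against 396 TPM with pUC19.

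RefSeq promoter windows, from 250 bases before the start site to 50 after it, were matched for 30 of the 36 genes. AARS2, DARS, LARS, VARS, VARS2 and YARS had no entry. The core of the C/EBP-ATF response element, TGATGNAAN on either strand, is the sequence class through which ATF4 is known to act. It was present in 7 of these 30 windows (23.3%: AARS, CARS, IARS, MARS, NARS, TARS and YARS2) and in 1002 of 27305 windows of all genes (3.67%). The E-box CACGTG, which reads the same on both strands and was chosen after the values were seen, is bound by MYC and related factors. It was present in 4 of 30 windows (13.3%: CARS2, EARS2, IARS and MARS2) and in 2030 of all windows (7.43%). These matches describe letters only. The 30-base stretches of genes that head the comparisons are shown with the matched letters in capitals, on the strand of the gene, placed in GRCh37 by exact match.

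IARS, ATF core (complement strand), chr9:95055980-95056009: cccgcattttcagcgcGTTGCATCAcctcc
IARS, E-box, chr9:95056148-95056177: tggttcgttttcCACGTGgaggcgcaaaac
MARS2, E-box, chr2:198570063-198570092: gctgcgcatgcgcctctcaCACGTGctgtc
AARS, ATF core (complement strand), chr16:70323579-70323608: cttttctcgcaGTTGCATCAgccaagttag
YARS2, ATF core, chr12:32909010-32909039: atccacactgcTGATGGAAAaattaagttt

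In the GENCODE annotation of that build, the IARS stretch with the ATF core and the AARS stretch lie within an exon of their gene, since GENCODE starts these genes further upstream than RefSeq. The IARS E-box stretch ends 12 bases before the gene, that of MARS2 directly before its first base and that of YARS2 179 bases before it. The AARS stretch is also exonic in DDX19B on the opposite strand, and the YARS2 stretch in another gene that has an identifier but no symbol.

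All 36 genes had reads in all 5 libraries, from 164 reads upwards, so detection did not limit the comparisons. With pUC19 they took 0.614% of all TPM. The cytosolic enzymes ranged from 107 TPM (HARS) to 476 TPM (YARS) with a median of 249.7 TPM, and the mitochondrial ones from 19.2 TPM (MARS2) to 214 TPM (IARS2) with a median of 39.2 TPM. For 13 amino acids a gene of each kind was compared, and the cytosolic gene stood at the higher level in each. The ratio ran from 1.65 for isoleucine, IARS to IARS2, to 18.6 for methionine, MARS to MARS2.

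GARS, for glycine, had the highest mean level, with 492 TPM in the DNMT1, 501 in the DNMT3A, 514 in the DNMT3B and 729.5 in the EGFP fusion and 468 with pUC19. The EGFP fusion stood highest and the other 4 libraries lay close together. DARS, for aspartate, had the lowest mean of the cytosolic genes, with 77.2, 93.3, 96.4 and 84.4 TPM in the same order of fusions and 122 TPM with pUC19. Here the control was the highest library. IARS2, for mitochondrial isoleucine, led the mitochondrial genes with 149.5, 134, 134 and 175 TPM in the fusions and 214 TPM with pUC19, again the highest.

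**Figure D1:**
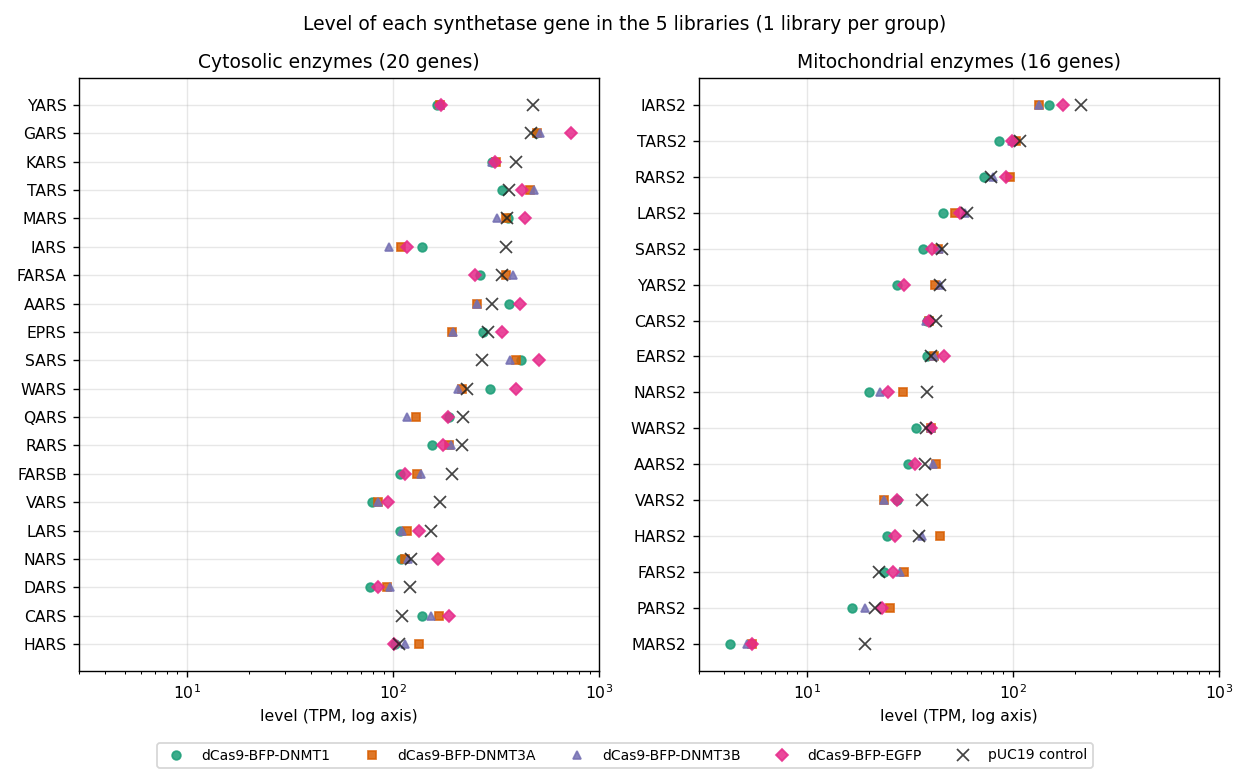
Level of each synthetase gene in TPM on a log axis, with cytosolic enzymes on the left and mitochondrial enzymes on the right, sorted by the level with pUC19. Each symbol is 1 library, and the crosses of pUC19 stand far to the right of the 4 fusions for YARS, IARS and MARS2.

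The first question was which synthetases differed between each fusion and pUC19. IARS, YARS and MARS2 were called lower in each of the 4 fusions. VARS was also called in the DNMT1, DNMT3A and DNMT3B fusions. No synthetase was called higher in any fusion. A call needed an adjusted p of at most 0.001 and a ratio of at least 2-fold of TPM + 0.1. The p came from a two-sided exact binomial test of the reads of 2 libraries, with Benjamini-Hochberg adjustment over all genes with a read. It compares 2 libraries and covers the sampling of reads only, and the 4 comparisons share the pUC19 library.

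In the DNMT1 fusion 4 of 36 synthetases (11.1%) were called lower, where 3.67% of all genes tested were lower and 1.61% higher. In the DNMT3A fusion 4 of 36 (11.1%) were lower, against 5.01% of all genes lower and 4.44% higher. In the DNMT3B fusion 4 of 36 (11.1%) were lower, against 4.37% lower and 4.51% higher. In the EGFP fusion 3 of 36 (8.3%) were lower, against 3.13% lower and 2.65% higher. With the edgeR exact test at an assumed coefficient of variation of 0.2 between libraries, 0 synthetases reached an adjusted p of at most 0.001 in any fusion, and the lowest adjusted p was 0.00152 (MARS2, DNMT1 fusion). At that threshold and 2-fold, few of all genes were called. They were 17 higher and 15 lower in the DNMT1 fusion, and 59 and 72 in the DNMT3A fusion. The DNMT3B fusion had 52 and 55, and the EGFP fusion 31 and 27. At an unadjusted p under 0.05 this test counted 4, 4, 5 and 5 synthetases in the DNMT1, DNMT3A, DNMT3B and EGFP fusions, and 9.34%, 15.7%, 15.2% and 10.8% of all genes.

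YARS, the cytosolic enzyme for tyrosine (chr1:33240838-33283632), was at 164, 169.9, 169 and 171 TPM in the DNMT1, DNMT3A, DNMT3B and EGFP fusions and at 476 TPM with pUC19. The 4 fusions lay within 1.04-fold of each other and far below the control. The log2 ratios to pUC19 were -1.54, -1.49, -1.49 and -1.48. Exons of YARS share 396 bases with S100PBP on the opposite strand, and whether reads were counted by strand was not stated.

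IARS, the cytosolic enzyme for isoleucine and a member of the multisynthetase complex (chr9:94972489-95056136), was at 138, 109, 95.6 and 117 TPM in the fusions in the same order and at 354 TPM with pUC19. The DNMT1 fusion was the highest of the 4 and the DNMT3B fusion the lowest, all well under the control. Relative to pUC19, IARS was 2.57-fold, 3.24-fold, 3.70-fold and 3.02-fold lower. Its promoter window is the 1 among the 30 with both the ATF core and the E-box.

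MARS2, the mitochondrial enzyme for methionine (chr2:198570093-198573119), was at 4.27, 5.42, 5.15 and 5.42 TPM in the fusions and at 19.2 TPM with pUC19. It was the lowest of the 36 genes in each library and had the widest log2 ratios in the DNMT1, DNMT3A and EGFP fusions, at -2.14, -1.81 and -1.80. In the DNMT3B fusion it reached -1.88, where IARS stood at -1.89. With 164 reads behind the lowest value, the 95% counting interval of the ratio in the DNMT1 fusion ran from -2.41 to -1.93.

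VARS, the cytosolic enzyme for valine, which is known to bind elongation factor 1 (chr6:31745295-31763529), was at 79.5, 84.6, 84.4 and 95.01 TPM in the fusions and at 169.8 TPM with pUC19. The fusions lay together below the control, and their log2 ratios of -1.094, -1.003, -1.007 and -0.837 sit at the 2-fold threshold. The call was lost in the DNMT1 fusion with TMM scaling (-0.97), in the DNMT3A fusion with TMM scaling (-0.98) or a pseudocount of 1 TPM (-0.996), and in the DNMT3B fusion with that pseudocount (-0.999). Leaving the DNMT rows out of the totals also ended it in the DNMT3A (-0.98) and DNMT3B (-0.96) fusions.

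At a ratio of 1.5-fold, 8 synthetases were lower and 1 higher in the DNMT1 fusion (10.9% and 4.43% of all genes), and 7 lower and 1 higher in the DNMT3A fusion (11.4% and 11.2%). In the DNMT3B fusion 8 were lower and 0 higher (10.7% and 11.3%), and in the EGFP fusion 6 lower and 4 higher (8.70% and 7.59%). The 4 genes past 1.5-fold upwards with EGFP were SARS, CARS, WARS and GARS, named after their values were seen. SARS, for serine, was at 416, 396, 368 and 510 TPM in the fusions and at 271 TPM with pUC19. The control was the lowest library, and the log2 ratios were 0.62, 0.55, 0.44 and 0.91. CARS, for cysteine, was at 139, 167, 153 and 188 TPM and at 111 TPM with pUC19, with log2 ratios of 0.33, 0.59, 0.47 and 0.76. Again the EGFP fusion was the highest and the control the lowest. Beyond the genes called at 2-fold, FARSB, QARS, DARS, NARS2, IARS2, VARS2 and YARS2 were lower by this rule in at least 1 fusion, down to -0.94 for NARS2 with DNMT1. The remaining 21 genes were not called at 1.5-fold in any fusion.

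**Figure D2:**
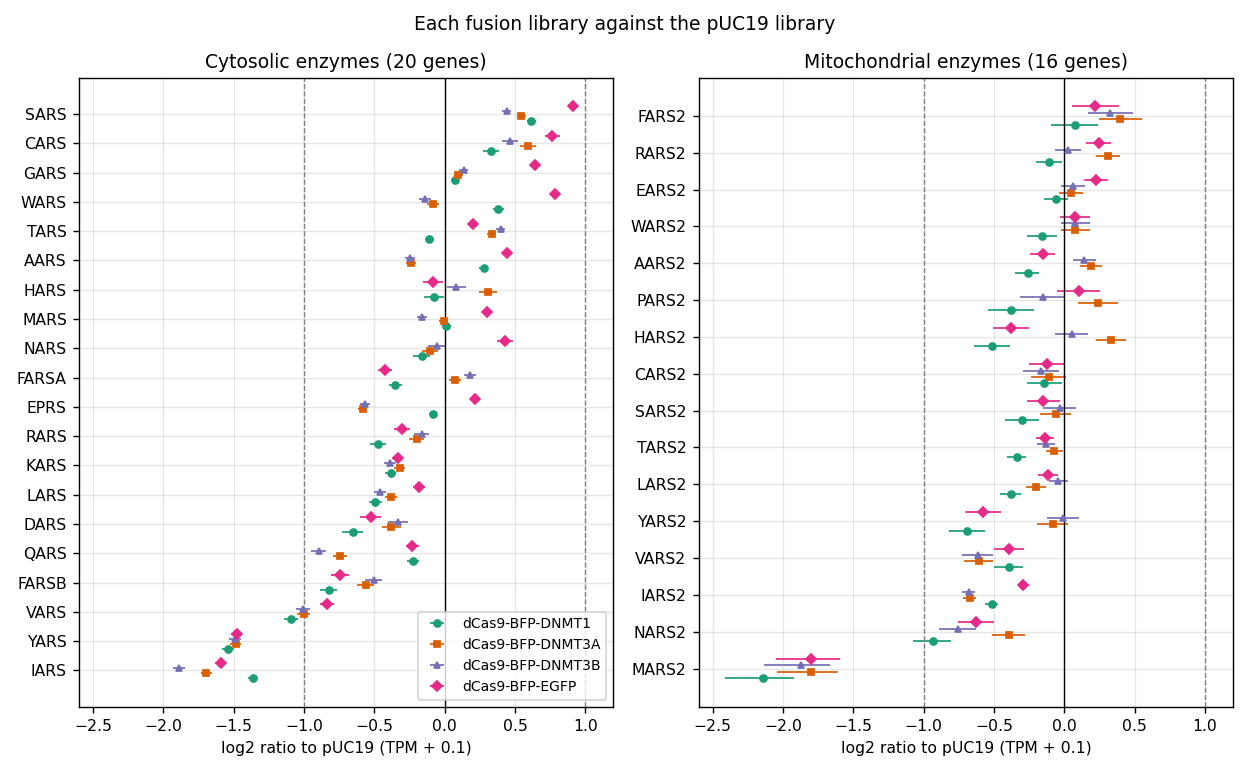
Log2 ratio of each fusion library to the pUC19 library for the 36 synthetases, as TPM + 0.1, with 95% counting intervals as bars and 2-fold marked by dashed lines. IARS, YARS and MARS2 lie left of the lower dashed line in each fusion, and no gene lies right of the upper one.

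To set the difference from pUC19 against the spread between transfected libraries, the 4 fusions were fitted as 1 arm and pUC19 as the other with edgeR's quasi-likelihood test. Each fusion is a construct of its own rather than a replicate, and the lone pUC19 library was assumed to vary like them. IARS, YARS, MARS2 and VARS were lower, 4 of 36, where 0.644% of genes tested were lower. None of the 36 was higher, where 0.0937% of genes were, and 10 of the 36 had an unadjusted p under 0.05, where 18.0% of all genes tested had. DESeq2 gave the same 4 genes, but it passed 5.03% of all genes tested in either direction, where edgeR passed 0.737%.

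YARS fell by 1.45 on the log2 scale (SE 0.155, edgeR adjusted p = 0.0123), IARS fell by 1.56 (SE 0.222, edgeR adjusted p = 0.0255) and MARS2 fell by 1.87 (SE 0.216, edgeR adjusted p = 0.0176). VARS fell by 0.93 (SE 0.165, edgeR adjusted p = 0.047). SARS, at a log2 fold change of 0.69 (SE 0.222, edgeR adjusted p = 0.16), and CARS, at 0.59 (SE 0.201, edgeR adjusted p = 0.176), did not pass. VARS lost its call when any of the 4 fusions was left out (edgeR adjusted p 0.0556 to 0.084) or a GC and length offset was used (edgeR adjusted p = 0.054), where its log2 fold change was -0.99. IARS lost its call without the EGFP fusion (edgeR adjusted p = 0.052) at a log2 fold change of -1.555. In bulk RNA, fewer cells with the usual level and a lower level in every cell cannot be told apart.

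As groups, the median log2 ratio to pUC19 of the 20 cytosolic genes was -0.19, -0.22, -0.20 and -0.13 in the DNMT1, DNMT3A, DNMT3B and EGFP fusions. That of the 16 mitochondrial genes was -0.36, -0.07, -0.04 and -0.14. Without the DNMT rows in the totals, the mitochondrial median in the DNMT3B fusion changed sign, to 0.011. All genes of at least 5 TPM had medians of -0.15, 0.00, 0.00 and -0.01. TMM scaling moved the median of these genes in the DNMT1 fusion to -0.02, and all calls there from 307 higher and 699 lower to 417 higher and 487 lower. The DNMT1 medians of the cytosolic and mitochondrial enzymes were then -0.07 and -0.23. Summed over genes, the cytosolic enzymes held 5253 TPM with pUC19, 4409 to 4485 TPM in the fusions with a DNMT domain and 5337 TPM with EGFP.

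Genes for the same amino acid often differed in their ratios. MARS, at 359.5, 355, 319 and 439 TPM in the fusions and 357 TPM with pUC19, had a mean log2 ratio of 0.04, while MARS2 had -1.91. The MARS/MARS2 ratio went from 18.6 with pUC19 to 72.7 for the mean of the fusions. For tyrosine the order was the other way, with YARS at -1.50 and YARS2 at -0.34, and likewise for isoleucine, with IARS at -1.63 and IARS2 at -0.54. In the fusions IARS was thus at 0.777 times IARS2 on average, against 1.65 times with pUC19. MARS exons share 519 bases with ARHGAP9 and 355 bases with DDIT3, both on the opposite strand. DDIT3 was at 29.9 TPM with pUC19 and at 49.1 to 113 TPM in the fusions. The part of these overlaps in the MARS values was not tested.

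**Figure D3:**
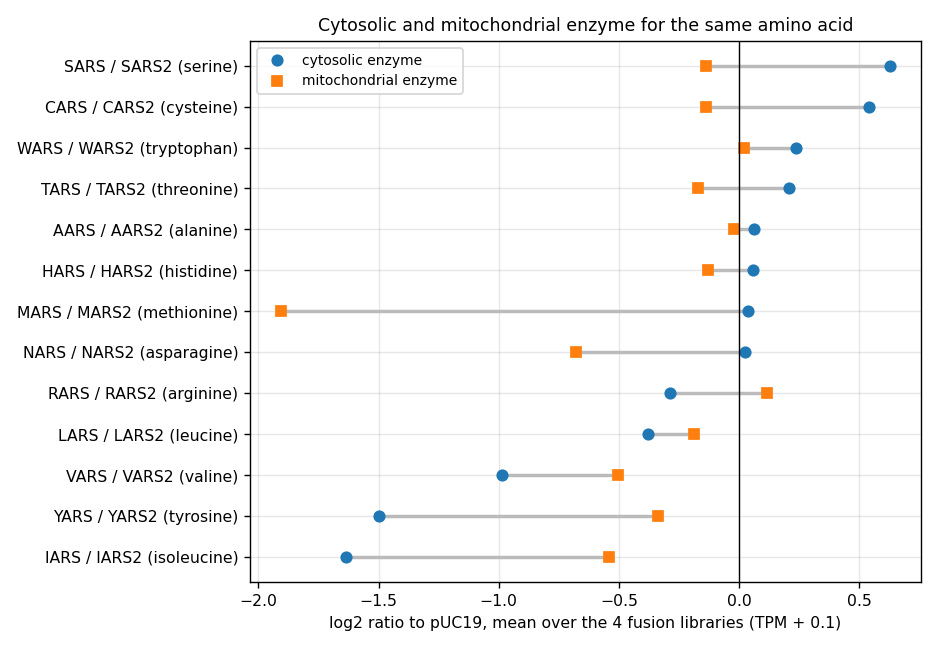
Mean log2 ratio to pUC19 over the 4 fusion libraries for the cytosolic (circle) and mitochondrial (square) gene of 13 amino acids, joined by a grey line. Methionine, with MARS2 at -1.91 and MARS at 0.04, and tyrosine, with YARS at -1.50 and YARS2 at -0.34, show wide gaps in opposite directions.

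By class, the 4 genes past the edgeR threshold are all among the 18 class I genes. The median log2 ratios of class I were -0.39, -0.20, -0.16 and -0.21 in the DNMT1, DNMT3A, DNMT3B and EGFP fusions, and those of the 17 class II genes -0.30, 0.07, -0.03 and -0.14. EPRS holds activities of both classes and was counted in neither. The 8 genes of the multisynthetase complex had medians of -0.43, -0.38, -0.42 and -0.27, and the other 12 cytosolic genes -0.09, -0.01, 0.01 and 0.32. The class of the 4 genes and these medians are descriptions of the members and were not tested. VARS, which is among the 4, lost its call under several alternatives given above.

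The next question was whether the fusions with de novo methyltransferase domains differed from the others. DNMT3A and DNMT3B were fitted against DNMT1 and EGFP with edgeR, 2 libraries against 2, without pUC19. In the arm of DNMT3A and DNMT3B, WARS, AARS, EPRS and QARS were lower and YARS2, HARS2 and FARSA were higher. The 4 lower genes are 11.1% of the members, where 4.15% of genes tested were lower, and the 3 higher genes are 8.3%, where 6.90% were higher. At an unadjusted p under 0.05 there were 12 members, where 28.8% of all genes tested were. None of the 7 calls held when the DNMT3A or the DNMT3B library was left out, although each kept its direction. These fits called 0.114% and 0.336% of all genes tested. Without the DNMT1 library 12 members passed, where 22.5% of all genes tested passed. YARS2, HARS2 and FARSA also lost their call without a filter on low counts.

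WARS, for tryptophan and known to be induced by interferon (chr14:100800127-100843142), was at 215 and 207 TPM in the DNMT3A and DNMT3B fusions, 297 and 393 TPM in the DNMT1 and EGFP fusions, and 228 TPM with pUC19. The de novo fusions lay just under the control and the other fusions above it. WARS fell by 0.76 on the log2 scale (SE 0.130, edgeR adjusted p = 0.0103). Its exons share 385 bases with a gene without a symbol and 287 bases with WDR25, both on the opposite strand.

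AARS, for alanine (chr16:70285886-70323610), was at 257 and 256 TPM in the DNMT3A and DNMT3B fusions, 367 and 413 TPM in the DNMT1 and EGFP fusions, and 303 TPM with pUC19. As for WARS, pUC19 lay between the arms. AARS fell by 0.66 (SE 0.113, edgeR adjusted p = 0.0104).

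EPRS, which joins glutamate and proline activity in 1 protein of the multisynthetase complex (chr1:220141942-220219872), was at 194 and 196 TPM in the DNMT3A and DNMT3B fusions, 273 and 337 TPM in the DNMT1 and EGFP fusions, and 289.8 TPM with pUC19. The EGFP fusion was highest and the de novo fusions lowest. EPRS fell by 0.70 (SE 0.121, edgeR adjusted p = 0.0104). QARS, for glutamine and of the same complex (chr3:49133365-49142563), was at 130.0 and 117 TPM in the DNMT3A and DNMT3B fusions against 186 and 185.5 TPM, with 217.5 TPM in pUC19. QARS fell by 0.64 (SE 0.124, edgeR adjusted p = 0.0149). The control was the highest library for QARS, but not for EPRS.

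YARS2, for mitochondrial tyrosine and known for an inherited myopathy (chr12:32880424-32908831), was at 42.0 and 44.2 TPM in the DNMT3A and DNMT3B fusions, 27.5 and 29.8 TPM in the DNMT1 and EGFP fusions, and 44.4 TPM with pUC19. The de novo fusions lay next to the control and the others below it. YARS2 was higher by 0.53 on the log2 scale (SE 0.134, edgeR adjusted p = 0.0363). Its exons share 388 bases with a gene without a symbol on the opposite strand.

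HARS2, for mitochondrial histidine (chr5:140071015-140078890), was at 44.2 and 36.4 TPM in the DNMT3A and DNMT3B fusions, 24.6 and 27.0 TPM in the DNMT1 and EGFP fusions, and 35.2 TPM with pUC19. The DNMT3A fusion lay above the control and the DNMT1 and EGFP fusions below it. The DNMT3B fusion was near the control, at a log2 ratio of 0.05 (95% counting interval -0.07 to 0.17). Between the DNMT3A and DNMT3B fusions the log2 ratio was 0.28. HARS2 was higher by 0.59 (SE 0.150, edgeR adjusted p = 0.0368). HARS and HARS2 are close paralogs that lie next to each other and share 108 exonic bases on opposite strands. Whether this affected the reads counted for either gene was not tested. HARS2 also shares 152 exonic bases with ZMAT2 on the same strand.

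FARSA, the alpha subunit of the enzyme for phenylalanine (chr19:13033293-13044851), was at 353.5 and 382 TPM in the DNMT3A and DNMT3B fusions, 263 and 251 TPM in the DNMT1 and EGFP fusions, and 336 TPM with pUC19. The control lay between the arms. FARSA was higher by 0.46 (SE 0.123, edgeR adjusted p = 0.0443). Its partner, the beta subunit FARSB, was at 131 and 136 TPM against 109 and 115 TPM, with 193 TPM in pUC19. FARSB had a log2 fold change of 0.20 (SE 0.116, edgeR adjusted p = 0.288) and did not pass. With an offset for GC content and gene length, FARSA was no longer past the threshold, at a log2 fold change of 0.32.

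**Figure D4:**
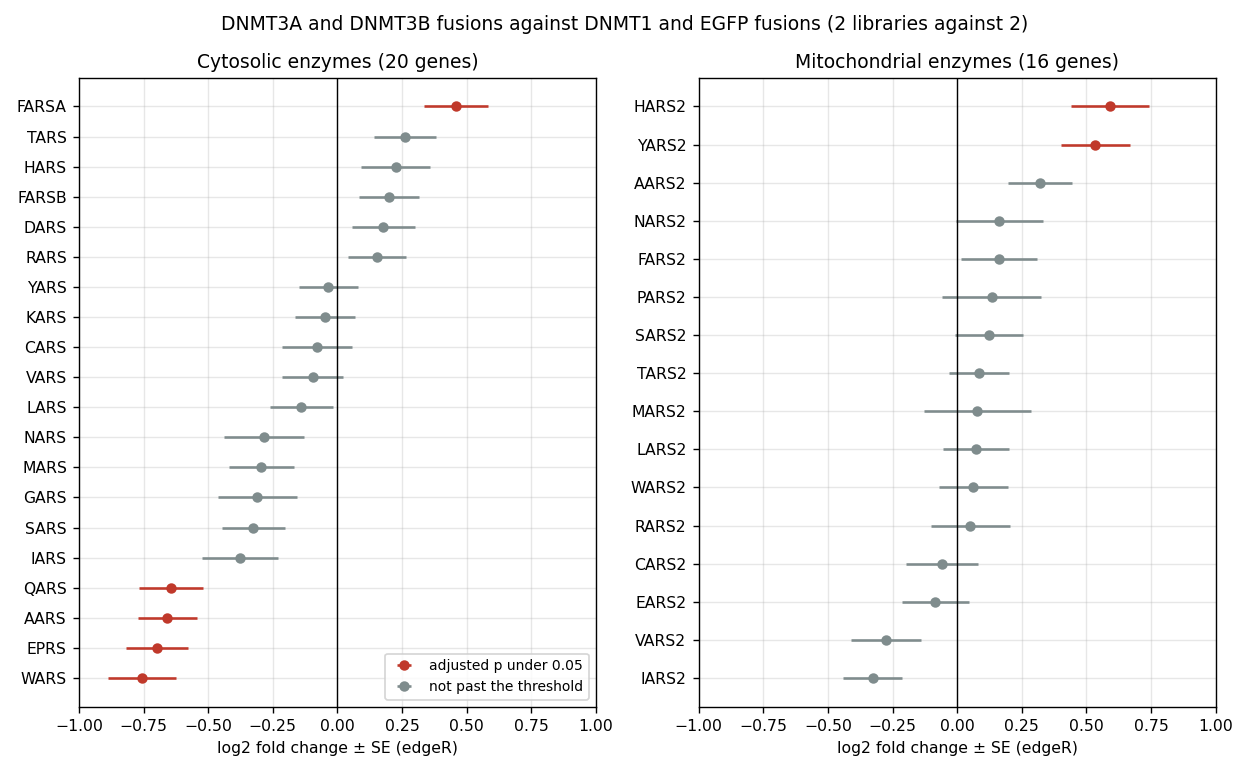
Log2 fold change with its standard error from edgeR for the 36 synthetases, DNMT3A and DNMT3B fusions against DNMT1 and EGFP fusions, cytosolic on the left and mitochondrial on the right. Genes in red passed an adjusted p under 0.05, with 4 to the left of 0 and 3 to the right.

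Within each arm the fusions were compared by the exact test. Between the DNMT1 and EGFP fusions 0 of 36 synthetases were called at 2-fold, where 1.48% of all genes were called. At 1.5-fold NARS, for asparagine, was called lower with DNMT1, at 109.5 TPM with DNMT1 and 165 TPM with EGFP (log2 ratio -0.59). This ratio sits at the 1.5-fold threshold, and no share of all genes is given for that rule. All genes of at least 5 TPM had a median log2 ratio of -0.14 between these libraries, and 31 of the 36 members lay below 0. Between DNMT3A and DNMT3B also 0 of 36 were called, where 0.242% of all genes were, and the log2 ratios of the members ran from -0.16 (LARS2) to 0.39 (PARS2).

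Of the partner list, which held among others scaffold proteins and tRNA editing or mitochondrial charging factors, 13 genes had a row. None was called higher in a fusion, and 1, 0, 0 and 1 were called lower in the DNMT1, DNMT3A, DNMT3B and EGFP fusions, in each case AIMP1. Of all genes, 3.67%, 5.01%, 4.37% and 3.13% were lower and 1.61%, 4.44%, 4.51% and 2.65% higher. With 13 genes these 2-fold counts do not set the list apart from all genes. At 1.5-fold 6, 2, 2 and 2 of the 13 were lower in the same order of fusions. Of all genes, 10.9%, 11.4%, 10.7% and 8.70% were lower by that rule. None of the 13 was higher by it, where 4.43%, 11.2%, 11.3% and 7.59% of all genes were. Whether the list as a set differs from all genes was not tested. AIMP1, a scaffold of the multisynthetase complex, was at 21.5, 28.5, 25.7 and 16.96 TPM in these fusions and at 43.1 TPM with pUC19. All fusions lay below the control, with log2 ratios of -1.002, -0.597, -0.746 and -1.341. By edgeR 0 of the 13 passed in either fit. Of all genes 0.644% were lower and 0.0937% higher against pUC19, and 4.15% and 6.90% between the arms. AIMP1 had an edgeR adjusted p of 0.159 against pUC19 and of 0.144 between DNMT3A and DNMT3B and the other fusions.

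The amino acid response list of 12 genes, which ATF4 is known to head, was called higher for 3, 3, 3 and 6 genes in the DNMT1, DNMT3A, DNMT3B and EGFP fusions and lower for 0, where 1.61%, 4.44%, 4.51% and 2.65% of all genes were higher. In the edgeR fit against pUC19 none of the 12 passed, where 0.644% of all genes were lower and 0.0937% higher. Between the arms 7 of the 12 were lower with DNMT3A and DNMT3B, where 4.15% of all genes were, and 3 were higher, where 6.90% were. ATF4 itself was at 1251, 1511, 1474 and 1635 TPM in the fusions and at 1210 TPM with pUC19, which was the lowest. DDIT3, a stress transcription factor, was at 78.7, 54.4, 49.1 and 113 TPM and at 29.9 TPM with pUC19, so that the control was lowest. ASNS, the asparagine synthetase that makes the amino acid, was at 626.5, 412, 391 and 871 TPM and at 446 TPM with pUC19. ASNS and DDIT3 had their highest levels with EGFP and then DNMT1. The 3 list genes higher with DNMT3A and DNMT3B were SESN2, DDIT4 and ATF3. SESN2, a stress protein of the sestrin family, was at 254, 589, 589 and 369.5 TPM in the DNMT1, DNMT3A, DNMT3B and EGFP fusions and at 139.8 TPM with pUC19. The list thus held genes of both orders. What part of the synthetase differences goes with this response was not tested.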

How the data were processed

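RNA sequencing of 5 libraries of HEK293T cells, 1 per group, was analysed. Sequencing of poly(A) RNA used the Ion Proton. The authors discarded low-quality reads, adaptor reads and reads under 30 nt, aligned the others with tmap (version not given in the sources used here) to RefSeq RNA of hg19 (GRCh37) with at most 3 mismatches, and kept uniquely mapped reads. The deposited read counts are whole numbers without normalization, and the deposited TPM values divide them by gene length and scale to a fixed sum. The deposited coverage in percent was not defined by the authors and was used only as a description. Unique mapping lowers paralogs, and strand use was not stated. Genes missing from a table were set to 0.

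Groups were taken from the sample titles. Each fusion was compared with pUC19, DNMT1 with EGFP and DNMT3A with DNMT3B by a two-sided exact binomial test given the 2 library totals, with Benjamini-Hochberg adjustment over every gene that had a read. A call needed an adjusted p of at most 0.001 and a ratio of at least 2-fold of TPM + 0.1, which understates changes of low genes. The counts were also fitted with edgeR (version 4.0.16, R 4.3.3), using TMM, filterByExpr and the quasi-likelihood F-test at an adjusted p under 0.05. The fitted coefficient of variation was 0.205 for the 4 fusions against pUC19 and 0.135 for 2 libraries against 2. Intervals cover the counting of reads only, and PCR copies cannot be told from molecules. Totals of 26250000 to 36140000 reads set the precision.

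Values were given in full for members called against pUC19, members past the threshold between fusion arms, and those of highest and lowest mean level. SARS, CARS, MARS, FARSB and NARS were added after their values were seen. So were SESN2, DDIT4 and ATF3 of the amino acid response list. Of the genes that the rule takes, 1 is not reported here. The members and gene lists were chosen with earlier results of these data known. Alternatives were another pseudocount, TMM scaling, totals without the DNMT rows, an assumed coefficient of variation of 0.2, other thresholds and filters, medians without GARS and KARS, DESeq2 (version 1.42.0), median-ratio size factors, a GC and length offset (loess span 0.3) and leaving out each fusion. The exact binomial test and the edgeR quasi-likelihood fits were tried on simulated counts with known changes. DESeq2 and the edgeR exact test were not. The simulated spread between libraries was below the fitted coefficients of variation, and for the exact binomial test only read sampling was simulated. These trials thus do not cover the spread of the data. Positions and exon overlaps come from GENCODE v44 on GRCh37, matched by the current symbol of each gene identifier. Promoter windows come from RefSeq (GRCh38), matched by gene identifier.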

Additional observations from a re-analysis of the deposited data

Results flagged for a closer look

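By edgeR's quasi-likelihood test, 7 synthetases differed between the fusions with a de novo methyltransferase domain (DNMT3A, DNMT3B) and the others (DNMT1, EGFP). The log2 fold changes were -0.76 for WARS, -0.70 for EPRS, -0.66 for AARS and -0.64 for QARS. They were 0.59 for HARS2, 0.53 for YARS2 and 0.46 for FARSA. Of all genes tested, 6.90% were higher and 4.15% lower with DNMT3A and DNMT3B. Each of the 7 genes had both libraries of one arm on the same side of both libraries of the other. This follows largely from choosing the genes by that test and adds no support. No group had enough libraries for a search for a single deviating sample.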

How the results depend on the processing

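Against pUC19, the number of synthetases called was 0 in each fusion with an assumed coefficient of variation of 0.2. By that rule 15 to 72 of all genes were called per direction. At 1.5-fold the number of synthetases was 9, 8, 8 and 10 in the DNMT1, DNMT3A, DNMT3B and EGFP fusions. At 1.5-fold 1 (NARS) was called between the DNMT1 and EGFP fusions, without a share of all genes for that rule. With TMM scaling the DNMT1 medians were -0.066 (cytosolic) and -0.231 (mitochondrial), and without the DNMT rows the cytosolic DNMT3B median was -0.156 and the mitochondrial one 0.011, against -0.038. In the fit of 4 fusions against pUC19, 2 to 3 synthetases passed when 1 fusion was left out, with 2 without EGFP (MARS2 and YARS). With DNMT3A and DNMT3B against DNMT1 and EGFP, 4 passed without a filter on low counts and 0 to 12 when 1 library was left out, 0 without DNMT3A or DNMT3B, 12 without DNMT1 and 9 without EGFP. Without the filter 5.43% of all genes tested passed, where 11.0% passed with it. Leaving out a library leaves an arm with 1 sample, which was assumed to vary like the others. All genes passing in these fits were 18 without DNMT3A, 53 without DNMT3B, 3536 without DNMT1 and 3850 without EGFP, against 1694 with all 4 libraries. No called synthetase reversed direction under these alternatives. Apart from these constructions, causes were not tested.

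With 1 library per group, differences between fusions and control have no replicate check. Constructs, sorting and library preparation cannot be told apart. No paired analysis was possible because each group has 1 library and the labels give no replicate numbers.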
